A study of Mus musculus with 12 samples.

Results

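The 10 heart muscle genes Myh6, Myl4, Myl7, Tnnt2, Tnni3, Actc1, Nppa, Ryr2, Ttn and Srl were followed library by library in RNA from mouse lung tumours and from the lung around them. They are 10 of the 78298 gene rows of the count table and were picked by symbol, each matching 1 row. They were chosen with their levels in these libraries known, so the levels are given as a description. Where a test over all genes called some of them, the count is given beside the share of all genes called, and it is no independent evidence about the 10. No p-value of a member is given.

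The series holds 12 libraries, 3 in each of 4 groups. Adjacent normal lung and macroscopic tumours of LLC (Lewis lung carcinoma, a transplantable mouse tumour line) were cut out by hand from mice labelled VEH and from mice labelled HDM, for chronic exposure to house dust mite. The groups are named below by tissue and treatment label, as in normal VEH or tumour HDM. Small aliquots of about 1 mg of frozen tissue were extracted, so each library reads a small piece of lung or tumour. Strain, sex, age, the route by which the tumour cells were given and the length of exposure were not given in the sources used here. The labels do not say that replicates came from separate mice, so the spread between them may in part be technical.

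Levels are in CPM, a gene's count relative to the library total after scaling with TMM factors, and total counts ran from 20608682 to 32765364 per library. The tissue labels were met by the marker genes. The summed level of 9 lung epithelial genes was 59009 to 117420 CPM in the normal libraries and 49.6 to 25757 CPM in the tumours. The sum of 6 cell cycle genes was 27.9 to 156 CPM in normal lung and 501 to 1025 CPM in tumours. Normal VEH 2 had the 156 CPM and stood apart, with the other normal libraries at 27.9 to 41.2 CPM. The library names carry 6 prefixes, each joining 1 normal and 1 tumour library. For 2 of the 6 prefixes the members of the pair carry opposite treatment labels: normal HDM 3 with tumour VEH 3, and normal VEH 2 with tumour HDM 2. What a prefix stands for was not given in the sources used here. If it stands for 1 mouse, 1 treatment label in each of these pairs is wrong, which would change what the values of that library mean for VEH and HDM. Comparisons are therefore also given without these 4 libraries.

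Heart muscle contracts when calcium, released from internal stores, binds the troponin complex and lets myosin pull on actin. Atrial and ventricular muscle use partly different versions of these proteins. In mice, cardiac muscle is not restricted to the heart: sleeves of atrial-type myocardium run along the pulmonary veins into the lung, so a piece of mouse lung can hold cardiomyocytes without any heart tissue. In bulk tissue, fewer cells of a type and less RNA per cell cannot be told apart.

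The start regions of 3 members whose levels part company below are shown first. Myl7 and Nppa are atrial genes, and Actc1 is also made outside the heart. Each is the 250 bases before the annotated start of the canonical transcript, in GRCm39 with GENCODE M39 annotation, 5′ to 3′ on the gene's strand: chr11:5848793-5849042 on the minus strand for Myl7, chr4:148084841-148085090 on the plus strand for Nppa, and chr2:113884044-113884293 on the minus strand for Actc1. No annotated exon of the same gene falls in these windows. Capitals mark matches, on either strand, to the CArG box bound by serum response factor, the MEF2 box, GATAA (the core bound by GATA factors), CATTCC (the M-CAT element) and TATAAA.
Myl7: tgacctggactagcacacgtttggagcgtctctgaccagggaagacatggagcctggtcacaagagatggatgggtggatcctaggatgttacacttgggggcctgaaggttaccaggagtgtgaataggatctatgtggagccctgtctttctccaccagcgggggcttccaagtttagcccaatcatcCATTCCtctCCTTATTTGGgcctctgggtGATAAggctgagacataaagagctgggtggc
Nppa: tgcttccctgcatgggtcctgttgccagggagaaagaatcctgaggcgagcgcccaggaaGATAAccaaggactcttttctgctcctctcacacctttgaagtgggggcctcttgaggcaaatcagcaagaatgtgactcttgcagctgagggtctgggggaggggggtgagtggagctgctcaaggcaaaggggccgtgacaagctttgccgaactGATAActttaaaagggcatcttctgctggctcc
Actc1: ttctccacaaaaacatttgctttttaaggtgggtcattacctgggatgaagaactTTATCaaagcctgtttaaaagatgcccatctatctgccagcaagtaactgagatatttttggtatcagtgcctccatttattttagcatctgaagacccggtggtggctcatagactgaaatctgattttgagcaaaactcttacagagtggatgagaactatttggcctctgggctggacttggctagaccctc

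Myl7 has a CArG box, CCTTATTTGG, from 51 to 42 bases before the start, with a CATTCC at 60 and a GATAA at 31 bases before it. Nppa has GATAA at 190 and at 33 bases before its start, and Actc1 has GATAA on the opposite strand at 195. Of 21757 protein-coding promoters of the same length, 1.4% held a CArG box, 2.79% a MEF2 box, 22.4% GATAA, 12.1% CATTCC and 11.9% TATAAA. Among the 10 members, 1 window held a CArG box (Myl7), 1 a MEF2 box (Myh6), 4 GATAA, 3 CATTCC and none TATAAA. Annotated exons of the same gene overlap the windows of Myh6, Myl4, Tnni3, Ttn and Srl, so these windows are not purely upstream sequence. These are matches of letters only, and a window without a match says nothing about which factors act on the gene.

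The motor proteins gave the widest range. Myh6 encodes the alpha myosin heavy chain, the motor of atrial muscle and of the adult mouse ventricle. Its level was 0.041, 16.1 and 0.0841 CPM in the 3 normal VEH libraries, and 69.7, 158 and 81.5 CPM in the 3 normal HDM libraries. In tumours it was 0.594, 0 and 0.0922 CPM with VEH and 3.36, 0.137 and 0 CPM with HDM. All 3 normal HDM libraries stood above all 3 normal VEH libraries, and normal VEH 2 stood apart from the other 2 of its group, which had 3 counts or fewer. Between the highest normal library and a floor of 3 counts in the lowest, Myh6 spanned at least 1283-fold.

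The 2 myosin light chains of the atrium were also highest in normal HDM 2. Myl7, the atrial regulatory light chain, was at 0.0821, 4.4 and 3.24 CPM in normal VEH and at 11.3, 54.2 and 22.2 CPM in normal HDM. Tumours had 1.44, 0.372 and 0 CPM with VEH and 1.23, 0.137 and 0 CPM with HDM. Myl7 was near 0 in normal VEH 1, as Myh6 was, and it was clearly present in normal VEH 3, where Myh6 was not.

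Myl4, the atrial essential light chain, was at 3.08, 4.81 and 2.4 CPM in normal VEH and at 11.4, 47.5 and 22.5 CPM in normal HDM. In the tumours it was at 1.83, 1.86 and 1.34 CPM with VEH and at 2.91, 1.3 and 0.97 CPM with HDM. It never reached 0, and its range among normal libraries was 19.8-fold against at least 440-fold for Myl7. Myl4 overlaps Cdc27 on the opposite strand by 544 bases. Cdc27 carried 19307 counts over all libraries against 2699 for Myl4, and the strand setting of the counting was not given in the sources used here, so reads from the shared bases cannot be told apart.

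The thin filament genes split. Tnni3, the inhibitory troponin subunit of heart muscle, was at 1.85, 4.09 and 1.26 CPM in normal VEH and at 7.9, 31.5 and 12.6 CPM in normal HDM. All 6 tumours lay between 0.205 and 0.738 CPM, below every normal library. Tnni3 shares 1297 bases with Dnaaf3 on the same strand, a gene with 4234 counts against 1643.

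Tnnt2, the tropomyosin-binding troponin subunit, was at 21.5, 7.54 and 1.93 CPM in normal VEH and at 34.6, 43.9 and 47.7 CPM in normal HDM. In tumours it was at 1.57, 0.669 and 4.52 CPM with VEH and at 2.3, 0.137 and 0 CPM with HDM. Its highest normal library was HDM 3 and its highest normal VEH library was VEH 1, the library in which Myh6 and Myl7 were nearly absent.

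Actc1, the alpha actin of heart muscle, departed from the other members among the normal libraries. Its levels were 235, 6.47 and 8.96 CPM in normal VEH and 55.1, 102 and 233 CPM in normal HDM. Tumours had 1.02, 2.6 and 1.84 CPM with VEH and 3.12, 0 and 0 CPM with HDM. The highest library of all was normal VEH 1, so the normal VEH and normal HDM groups overlapped. Within that library Actc1 made 87.9% of the summed CPM of the 10 genes, and in the other normal libraries between 12.7% and 51.7%.

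Ttn, the giant spring protein of the sarcomere, was at 0.656, 2.01 and 0.799 CPM in normal VEH and at 3.89, 12.1 and 10.3 CPM in normal HDM. Its 6 tumour levels ran from 0.0849 to 0.492 CPM, all below the lowest normal library. The tumour VEH libraries held 3 counts or fewer each.

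Of the calcium genes, Ryr2, the release channel of the sarcoplasmic reticulum, varied least among the normal libraries. It was at 3.45, 4.02 and 3.45 CPM in normal VEH and at 6.63, 13.6 and 13.7 CPM in normal HDM, a range of 3.97-fold. Tumours had 0.51, 1.11 and 0.461 CPM with VEH and 0.903, 0.0683 and 0 CPM with HDM, below every normal library.

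Srl encodes sarcalumenin, a calcium-binding protein inside the same store. It was at 1.27, 1.48 and 1.6 CPM in normal VEH and at 3.23, 12.6 and 7.8 CPM in normal HDM. Tumours held 2.25, 1.71 and 4.01 CPM with VEH and 2.79, 2.97 and 3.09 CPM with HDM. All 6 tumours were above all 3 normal VEH libraries, which was the case for no other member, and tumour VEH 3 was also above normal HDM 1.

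Nppa, the atrial natriuretic peptide, is a hormone gene switched on strongly in working atrial muscle. It had 6, 6 and 2 counts in the normal VEH libraries and 0, 312 and 2 counts in the normal HDM libraries. Tumour VEH libraries had 0 counts in all 3, and tumour HDM libraries had 52, 0 and 2. The gene was thus well detected in normal HDM 2 and tumour HDM 1, at 11.8 and 2.13 CPM, and at 0.246 CPM or less in the other 10 libraries. Normal HDM 1 had no count of Nppa beside 1703 of Myh6, and a count of 0 was read here as at most 3 counts. Gm13054, on the opposite strand, overlaps Nppa by 1036 bases and had 314 counts against 382.

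**Figure D1:**
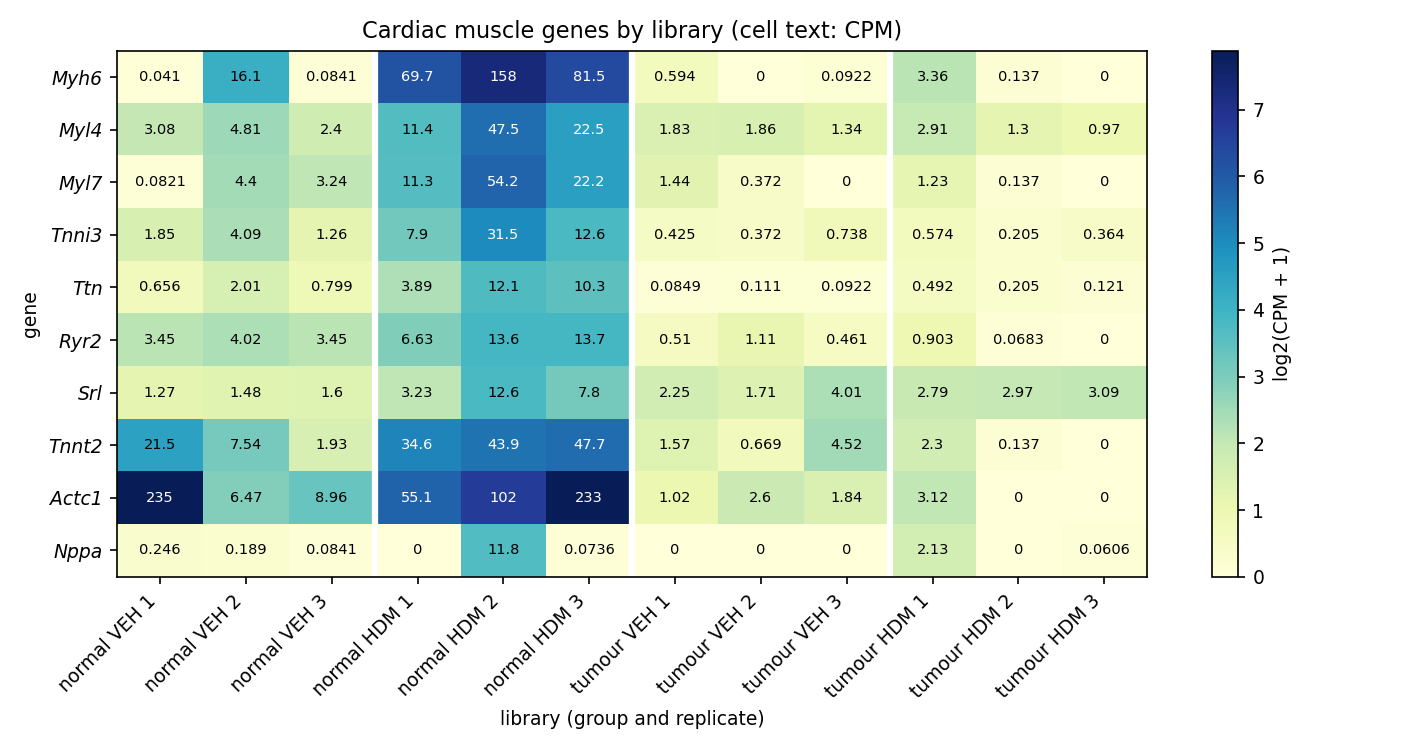
Level of each of the 10 genes (rows) in each of the 12 libraries (columns, 3 per group). Colour is log2(CPM + 1) and the printed value is CPM. Normal HDM 2 is the darkest column for most genes, Actc1 is darkest in normal VEH 1 and normal HDM 3, and Nppa is above 1 CPM in 2 libraries.

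Of the 10 genes 7 were thus highest in normal HDM 2, Tnnt2 and Ryr2 were highest in normal HDM 3, and Actc1 was highest in normal VEH 1. The sum over the 10 genes was 267, 51.1 and 23.8 CPM in normal VEH, 204, 487 and 452 CPM in normal HDM, and 4.61 to 19.8 CPM in the 6 tumours. Normal VEH 1 came after normal HDM 2 and 3 by the sum, with Actc1 as its main part. On a scale per kilobase of transcript, Myl7 led in normal HDM 2 at 91.8 RPKM, with Actc1 at 63 and Myh6 at 23.5 RPKM. In normal VEH 1, Actc1 stood at 145 RPKM beside 0.139 RPKM for Myl7 and 0.0061 RPKM for Myh6.

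Ratios of counts within a library need no scaling. Myh6 to Myl7 was 3.66 in normal VEH 2, 6.17, 2.92 and 3.67 in normal HDM 1 to 3, and 2.73 in tumour HDM 1. It was 0.412 in tumour VEH 1 and 1 in tumour HDM 2, from 14 and 4 counts of Myh6, and normal VEH 3 had 2 counts of Myh6 beside 77 of Myl7. Tnni3 to Myl7 was 0.699, 0.581 and 0.569 in the normal HDM libraries, 0.929 and 0.39 in normal VEH 2 and 3, and 0.294 to 1.5 in the 4 tumours with a value. Actc1 to Myl7 was wider, at 4.88, 1.88 and 10.5 in the normal HDM libraries. Nppa to Myh6 was 0.0745 in normal HDM 2 and 0.634 in tumour HDM 1, so the 2 libraries with Nppa differed in its share.

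Over the 6 normal libraries, log2 CPM of Myl4 and Tnni3 gave r = 0.99 and of Ryr2 and Srl r = 0.981, while Actc1 and Myl7 gave r = -0.022 and Actc1 and Myh6 r = 0.182. Among the other members Actc1 was closest to Tnnt2, at r = 0.818. Over all 12 libraries Actc1 reached r = 0.941 with Tnnt2, and Srl had the lowest values, from 0.24 with Actc1 to 0.668 with Myl4. These r values describe 6 or 12 points that share dissection and depth, and the 12 also share the difference between tissues.

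Actc1 is also expressed by smooth muscle, and it moved with smooth muscle markers. The summed level of 8 such genes, among them Acta2, Myh11, Cnn1 and Tagln, was 1699, 113 and 276 CPM in normal VEH and 376, 344 and 1617 CPM in normal HDM. It was 82.9 to 158 CPM in tumours. The 2 libraries highest in smooth muscle markers, normal VEH 1 and normal HDM 3, were the 2 highest in Actc1. Over the 6 normal libraries r with the log2 smooth muscle sum was 0.893 for Actc1, 0.516 for Tnnt2, -0.168 for Myh6 and -0.292 for Myl7. The part of smooth muscle in the Actc1 level was not tested.

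**Figure D2:**
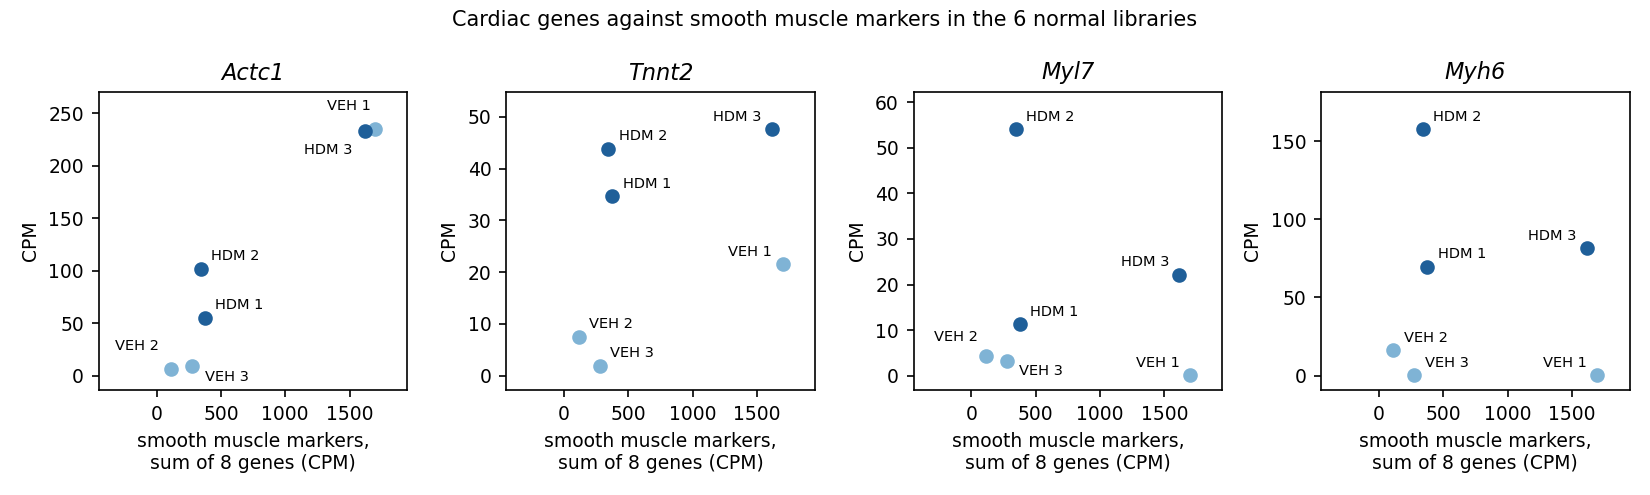
CPM of Actc1, Tnnt2, Myl7 and Myh6 (vertical axes) against the summed CPM of 8 smooth muscle markers (horizontal axis) in the 6 normal libraries, light points for VEH and dark for HDM. Actc1 is at 235 and 233 CPM in the 2 libraries with smooth muscle sums of 1699 and 1617 CPM, whereas Myh6 and Myl7 are near 0 in normal VEH 1.

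Markers of other tissues that could come with the dissected piece were read the same way. Of 22 skeletal muscle genes, 6 (Mybpc1, Myh4, Myh8, Myod1, Myog and Pvalb) had at most 3 counts in every library. The skeletal sum was 10.9 to 18.1 CPM in normal VEH, 18.3 to 20.3 CPM in normal HDM and 5.29 to 12.1 CPM in tumours. Acta1, the skeletal alpha actin, was at 0.52 CPM or less in all 12 libraries. The sum of 5 mesothelial genes, which mark the pleural surface, was 13.7, 988 and 512 CPM in normal VEH and 236, 416 and 99.2 CPM in normal HDM. Over the 6 normal libraries together its order was not that of Myh6. Within normal VEH the order was the same, and within normal HDM both were highest in HDM 2. Over the 6 normal libraries r with the log2 mesothelial sum was 0.391 for Myh6, 0.614 for Myl7, -0.404 for Tnnt2 and -0.795 for Actc1. The sum of 6 adipose genes was 5.94 to 7.8 CPM in normal VEH and 7.98, 22.1 and 10.3 CPM in normal HDM, highest in the library with the most Myh6. The part of these tissues in the cardiac levels was not tested.

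**Figure D3:**
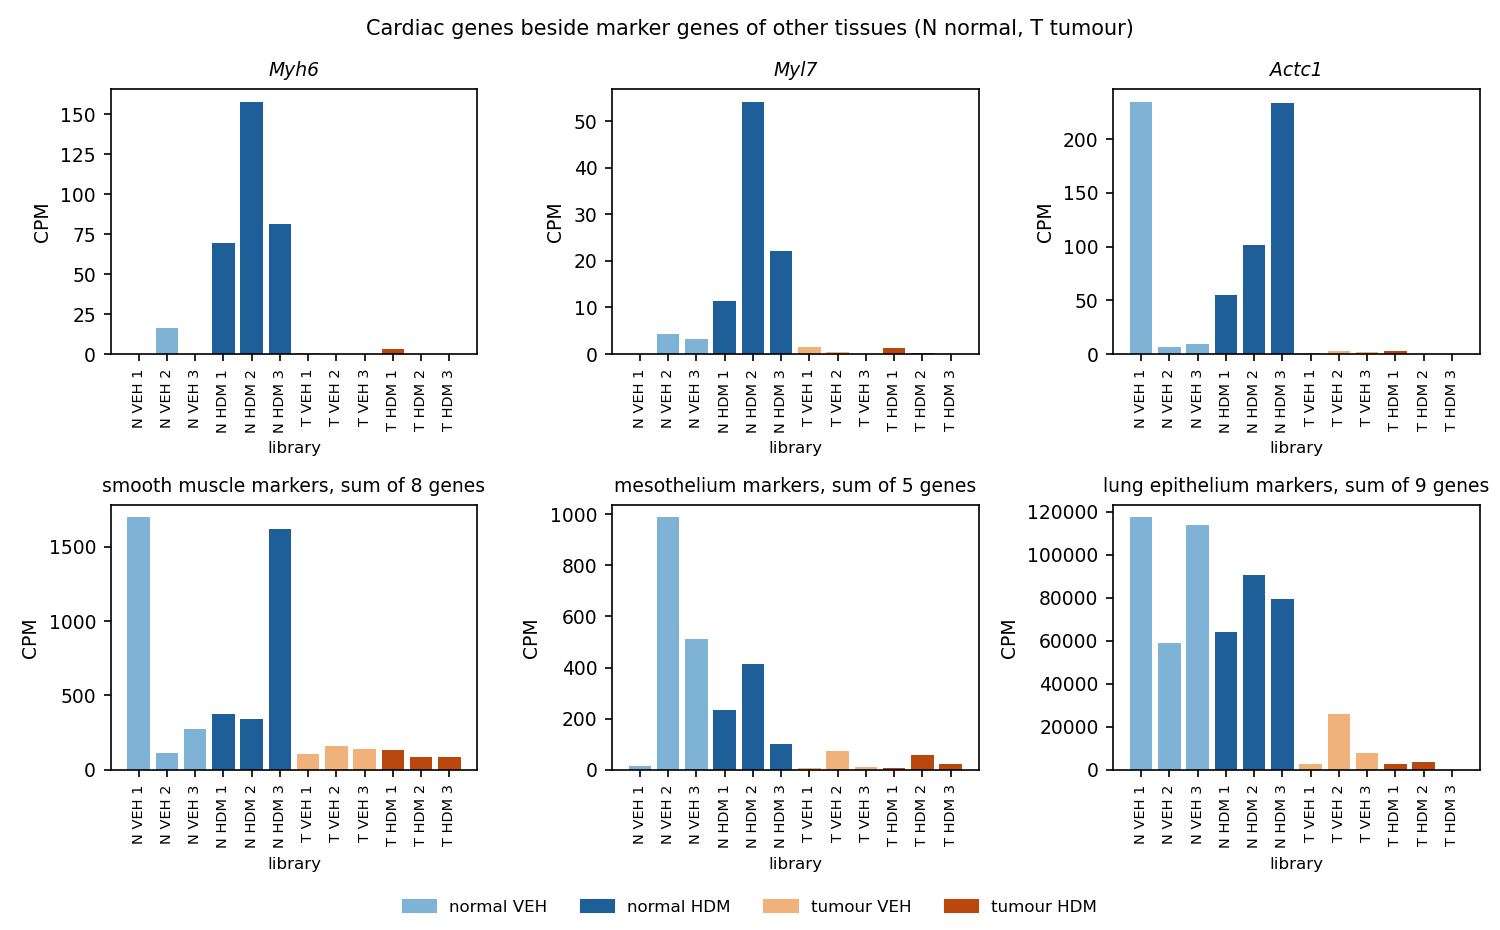
Bars from 0 give CPM in each of the 12 libraries (N normal, T tumour) for Myh6, Myl7 and Actc1 above, and for the summed smooth muscle, mesothelium and lung epithelium markers below. Actc1 and smooth muscle share their 2 tall bars, at normal VEH 1 and normal HDM 3, while Myh6 and Myl7 are tallest in normal HDM 2, whose smooth muscle sum is 344 CPM.

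Genes that prefer atrium or ventricle were read next. Sln, the atrial calcium pump regulator sarcolipin, was at 0, 2.2 and 0 CPM in normal VEH and at 9, 14.3 and 5.44 CPM in normal HDM. Kcnj3 and Kcnj5, the 2 subunits of the acetylcholine-gated potassium channel of the atrium, were at 1.47, 4.45 and 0.736 CPM and at 0.818, 3.17 and 1.84 CPM in normal HDM. Kcnj3 had no count in any normal VEH or tumour library, so normal HDM was at least 19.4-fold higher than a floor of 3 counts per library, or 9.64-fold without normal HDM 2. Mybphl, a myosin-binding protein of the atrium, was at 0, 0.377 and 0 CPM in normal VEH and at 1.92, 10.3 and 4.12 CPM in normal HDM. Bmp10, a growth factor of the atrium, had 2 counts in tumour HDM 1 and none elsewhere. Gja5 and Kcna5, which vessels also express, did not separate the normal groups: Gja5 was at 74.5, 16.9 and 76.6 CPM with VEH and at 35.5, 44.9 and 89.2 CPM with HDM.

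The ventricular genes differed among themselves. Myl2, the ventricular regulatory light chain, was at 0.189 CPM or less in every library. Irx4, a ventricular transcription factor, had no count in any library. Hey2, which vessels also express, was at 7.55, 2.51 and 4.54 CPM in normal VEH and at 2.05, 4.56 and 5.96 CPM in normal HDM. Myl3, the ventricular and slow-muscle essential light chain, was at 0.123, 0.905 and 2.61 CPM in normal HDM and at 0.0922 CPM or less elsewhere. Myh7, the beta myosin heavy chain, was at 12 to 24.4 CPM in normal VEH and 13.4 to 27.3 CPM in normal HDM, with no separation. The antisense transcript Mhrt covers 20918 bases of the Myh7 locus and had 2699 counts against 3171, and without a stated strand setting their reads cannot be told apart.

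Cardiac transcription factors did not follow one pattern. Nkx2-5, the homeobox factor that marks cardiomyocytes, was at 0.0818, 0.754 and 0.294 CPM in normal HDM, at 0 in all normal VEH libraries and at 0.0821 CPM or less in tumours. Tbx20 was at 1.55, 1.74 and 1.69 CPM in normal HDM and at 0.377 CPM or less in the other 9 libraries. Tbx5, which lung mesenchyme also uses, was at 23.1, 9.08 and 14.7 CPM in normal VEH, at 28.1, 14.9 and 34.7 CPM in normal HDM and at 2.34 CPM or less in tumours. Nkx2-5, Hand2 and Irx4 did not pass the filter on low counts.

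Tumour was then compared with normal lung within each treatment label, by edgeR's quasi-likelihood test over 22190 genes, of which 9 members passed the count filter (Nppa did not). A gene is called at a Benjamini-Hochberg adjusted p below 0.05. With HDM, all 9 were called lower in the tumours, where 51.9% of all genes tested were called and 28.9% were called lower. All 9 had every tumour below every normal library, an order that 33.5% of all genes showed, while 29.6% showed the reverse. The log2 fold changes ran from -1.41 ± 0.47 (SE) for Srl and -3.98 ± 0.60 for Myl4 to -6.51 ± 2.08 for Myh6 and -7.03 ± 1.92 for Actc1. The median was -5.50, against -0.08 over all genes. Leaving out 1 library called 6 to 9 members of 9 or 10 tested, the fewest, 6 of 10, without tumour HDM 2. Over all genes those fits called 9822 to 10695, against 11512 with every library. Without the 4 libraries of the conflicting prefixes 3 of 10 were called, where 8505 genes were called in all.

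With VEH, 3 members were called lower, Actc1 at -5.51 ± 1.78, Tnni3 at -2.23 ± 0.64 and Ttn, where 38.9% of all genes were called and 20.6% were called lower. Every tumour VEH library had at most 3 counts of Ttn, so its fold is a bound: tumours were at least 9.19-fold lower, and at least 5.79-fold when normal VEH 2 was left out. The 3 genes called and also Myl4 and Ryr2 had tumours below all normal libraries, against 28.5% of all genes. Srl was higher in all 3 tumours, at 0.87 ± 0.48, without being called, and 23.9% of all genes showed that order. Leaving out normal VEH 1, the library rich in smooth muscle markers, took Actc1 to -2.07. The count of 3 became 1 without tumour VEH 1 or without tumour VEH 2, and no member was called without the 4 libraries of the conflicting prefixes. Over all genes these fits called 5733, 9070 and 5603 in that order, against 8624 with every library. Without those 4 libraries Myh6 turned direction, with 1 and 2 counts in the remaining normal VEH libraries and 14 and 0 in the remaining tumour VEH libraries.

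Each tumour was also set beside the normal library that shares its name prefix. Over all 10 genes, the tumour held 3.64% of the summed CPM of its partner in tumour VEH 1, 2.9% in tumour VEH 3, 37% in tumour VEH 2, 2.26% in tumour HDM 3, 4.07% in tumour HDM 1 and 10.1% in tumour HDM 2. Srl and Myl4, both above 0 in every tumour, were left out for a second sum, a choice made after their values were seen. Over the other 8 genes the tumour held 2.15% of the summed CPM of its partner in tumour VEH 1, 1.84% in tumour VEH 3, 26.5% in tumour VEH 2, 0.288% in tumour HDM 3, 3.31% in tumour HDM 1 and 1.98% in tumour HDM 2. The lung epithelial sum gave 2.19%, 10%, 22.6%, 0.0776%, 3.21% and 5.86% in the same order. The single gene Scgb1a1 made up much of that sum, with 97459 of 117420 CPM in normal VEH 1. The sum of 6 endothelial genes gave 12%, 11.7%, 16.6%, 3.16%, 10.2% and 12.4%, again in that order. In each of these sums the share was largest in tumour VEH 2 and smallest in tumour HDM 3. For the members this did not reflect a high tumour level. Over all 10 genes tumour VEH 2 was at 8.81 CPM, beside 19.8 CPM in tumour HDM 1. Its partner, normal VEH 3, had the lowest normal sum, 23.8 CPM. For lung epithelium tumour VEH 2 was itself the highest tumour, at 25757 CPM. Tumour HDM 1, which had the highest tumour levels of Myh6, Myl4, Actc1, Nppa and Ttn, shares its prefix with normal HDM 2, the highest normal library for all of these but Actc1. The part of adjacent lung carried into a tumour piece was not tested.

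Among the other 66 cardiac genes listed, 58 were tested. In tumours with HDM, 52 were called, 45 lower and 7 higher, against 28.9% and 23% of all genes. The median log2 fold change was -4.94, or -4.05 with genes at the floor set to their bound. Some of the 58, such as Kcnj3 and Kcnj5, passed the count filter only through normal HDM and could only come out lower in tumour HDM. The 45 and the median are thus in part set by the filter, and the shares of all genes are no equal background. With the VEH libraries alone, 34 of the listed genes passed it. With VEH, 29 were called, 24 lower and 5 higher, against 20.6% and 18.2% of all genes, with a median of -2.76, or -1.63 with bounds and without the 5 genes at the floor in both groups. That count fell to 19 without normal VEH 1, to 17 without tumour VEH 1, to 15 without tumour VEH 3, to 15 with a block for the name prefix and to 16 without the libraries of the conflicting prefixes. In the same settings the count over all genes fell from 8624 to 6265, 5733, 5947, 5783 and 5603.

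By role, the sarcomere and cytoskeleton list had 20 lower and 2 higher of 22 tested with HDM, and 10 lower and 1 higher with VEH. Calcium handling had 6 lower and 2 higher of 11 with HDM, and 2 lower and 1 higher with VEH. Conduction, peptides and membrane had 7 lower and 1 higher of 9 with HDM, and 5 lower and 1 higher with VEH. Striated muscle energetics had 7 lower of 9 with HDM, and 3 lower and 1 higher with VEH. Transcription factors had 5 lower and 2 higher of 7 with HDM, and 4 lower and 1 higher with VEH.

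The 5 largest fitted falls with HDM were in genes without more than 3 counts in any tumour HDM library. Their fitted values depend on the prior count, so each fold is given as a lower bound, and the order of the bounds need not be that of the falls. Myom2, which ties myosin at the M-band, was at least 53.3-fold lower (adjusted p = 0.0052, edgeR). Ckm, the muscle creatine kinase, was at least 52.3-fold lower (adjusted p = 0.00114, edgeR). Lmod2, which sets thin filament length, was at least 25.8-fold lower (adjusted p = 0.000789, edgeR). Kcnj3 was at least 21.1-fold lower (adjusted p = 0.00813, edgeR) and Kcnj5 at least 18.4-fold lower (adjusted p = 0.00138, edgeR). Myom2, Ckm, Kcnj3 and Kcnj5 passed the count filter only through normal HDM, which set their direction, so their p-values are no independent support. Ckmt2 and Hrc, outside these 5 and named after their values were seen, were at least 41.9-fold and 28.3-fold lower, above the bound of Lmod2, or 20.4-fold and 16.9-fold without normal HDM 2. Without normal HDM 2 the bounds were 42-fold for Myom2, 35.9-fold for Ckm, 21.9-fold for Lmod2, 10.5-fold for Kcnj3 and 12.6-fold for Kcnj5.

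With VEH the largest fitted falls among called genes included Lmod2, whose fitted value against tumours at the floor is no measure of size and which was lower by a factor of at least 6.09 (adjusted p = 0.00379, edgeR), or 4.14 leaving out normal VEH 2. Tcap, a Z-disc cap of titin, was at -5.50 ± 1.54 (log2, adjusted p = 0.0182, edgeR). Kcnj5 was called lower (adjusted p = 0.0418, edgeR) on 4, 2 and 2 counts in normal VEH against none in tumour VEH, too few for a fold, and was called in 3 of 13 alternatives. Cox8b, a muscle subunit of cytochrome oxidase, fell by 4.20 ± 1.20 (adjusted p = 0.0238, edgeR), and was called in 7 of 14 alternatives. Hcn4, the pacemaker channel, fell by 3.89 ± 1.42 (adjusted p = 0.05, edgeR), just under the threshold, and was called in 4 of 13 alternatives. Tcap was called in 8 of 14. For Cox8b and Hcn4 the only tumour VEH library with counts was tumour VEH 2.

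Of the genes that rose in tumours, Shox2, a sinus node and limb transcription factor, was at 9.09 to 13 CPM in all 6 tumours and at 0.912 CPM or less in normal lung, a rise of 4.91 ± 1.00 with VEH (adjusted p = 0.00426, edgeR) and 5.19 ± 1.03 with HDM (adjusted p = 0.00223, edgeR). Gja1, the widely used gap junction protein connexin 43, rose by 2.06 ± 0.63 with VEH (adjusted p = 0.0267, edgeR; called in 9 of 15 alternatives) and 2.78 ± 0.65 with HDM (adjusted p = 0.00536, edgeR). Gata4 rose with HDM, at 3.25 ± 1.12 (adjusted p = 0.0317, edgeR), and stood at 8.14 to 31.9 CPM in tumours, though normal VEH 2 reached 9.18 CPM and the call held in 5 of 14 alternatives. Cacna1c, the L-type calcium channel, rose by 1.22 ± 0.34 with HDM (adjusted p = 0.0121, edgeR). Tnni1, the slow troponin, was called higher with HDM, by at least 2.78-fold (adjusted p = 0.0462, edgeR), with no library above 0.492 CPM and a call in 5 of 13 alternatives. Eno3, Asph and Tpm1 rose with VEH, by 1.73 ± 0.40, 0.73 ± 0.19 and 0.71 ± 0.16 (adjusted p = 0.00713, 0.0132 and 0.00658, edgeR). Asph and Tpm1 also rose with HDM, by 1.07 ± 0.19 and 0.65 ± 0.16 (adjusted p = 0.00127 and 0.00653, edgeR), while Eno3 was at -0.53 ± 0.38 with HDM and was not called (adjusted p = 0.268, edgeR).

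**Figure D4:**
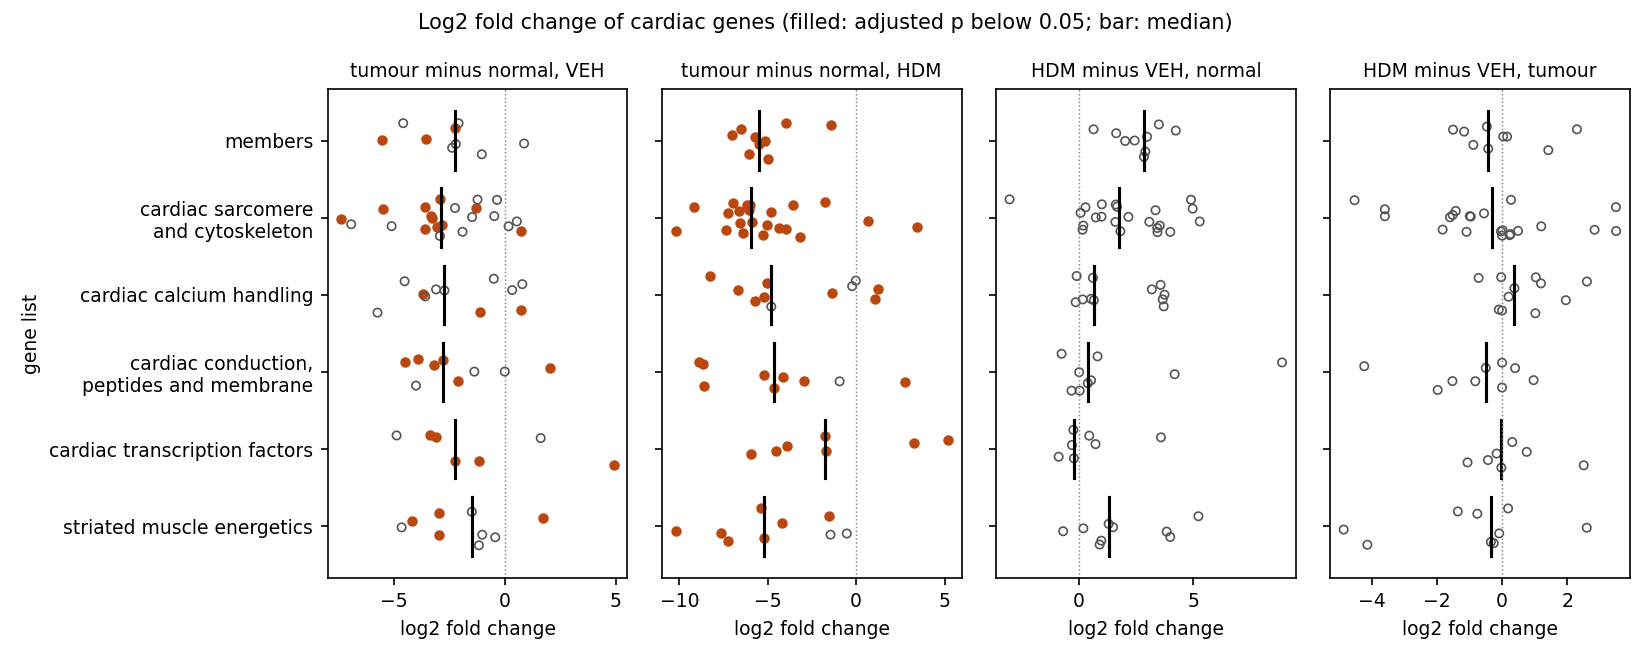
Log2 fold change of every tested member and every tested gene of the 5 cardiac lists (rows) in 4 comparisons (panels), with filled points for genes called by edgeR at an adjusted p below 0.05, open points for the rest and a bar at each list's median. Members lie left of 0 in tumours with HDM and right of 0 for HDM against VEH in normal lung, where no point is filled, and values of genes with a group at 0 depend on the prior count.

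HDM was compared with VEH in normal lung. No gene of the 22190 was called by edgeR, members included, so 0% is the background, and 1230 genes had an unadjusted p below 0.05. Of the 9 tested members 8 had normal HDM libraries above all normal VEH libraries, the order that 4.48% of all genes showed. Actc1 was the exception, at 0.64 ± 1.44 on the log2 scale. The other changes were 4.24 ± 1.84 for Myh6, 3.50 ± 1.49 for Myl7, 2.98 ± 0.57 for Myl4, 2.91 ± 0.62 for Ttn, 2.84 ± 0.62 for Tnni3, 2.44 ± 0.49 for Srl, 2.02 ± 1.21 for Tnnt2 and 1.63 ± 0.90 for Ryr2. DESeq2's Wald test called 43 genes, 0.194% of the 22190, among them the 4 members Ttn, Tnni3, Myl4 and Srl.

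These values moved with single libraries. Without normal VEH 1 the Actc1 change was 4.08, and without the libraries of the conflicting prefixes it was -0.65. In the latter setting normal VEH holds 1 and 2 counts of Myh6. With the name prefix as a block, the Tnnt2 change was 0.60 and the Tnni3 change 1.52.

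Of the other 58 cardiac genes none was called by edgeR, 25 had an unadjusted p below 0.05, and DESeq2's Wald test called 4, among them Mybpc3, Casq2 and Kcnj5. In 30 genes all normal HDM libraries were above all normal VEH libraries and in none the reverse, against 4.48% and 5.84% of all genes. The median log2 fold change was 0.99, against -0.01 over all genes. By role, that order held for 14 of 22 sarcomere genes, 6 of 11 calcium genes, 6 of 9 energetics genes, 3 of 9 conduction and membrane genes and 1 of 7 transcription factors. These counts are in part set by the count filter. Some of the 58 passed it only through normal HDM, which fixed their order in advance. Kcnj3, at 36, 118 and 20 counts in normal HDM, had none in any other group, and Kcnj5 had at most 4 elsewhere. The shares of all genes are thus no equal background for the 58.

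The summed levels of smooth muscle, mesothelium, lung epithelium and endothelium markers overlapped between normal VEH and normal HDM, and so did the sum of the 10 members, since normal VEH 1 was above normal HDM 1 through Actc1. The adipose and skeletal sums did not overlap, at 5.94 to 7.8 against 7.98 to 22.1 CPM and at 10.9 to 18.1 against 18.3 to 20.3 CPM. All normal HDM libraries were above all normal VEH libraries for 3 of 4 adipose genes tested (Adipoq, Cidec and Plin1) and for 1 of 11 skeletal genes. Adipoq was at 0.0821, 0 and 0 CPM in normal VEH and at 0.573, 3.85 and 1.25 CPM in normal HDM, and the part of adipose tissue in the member levels was not tested.

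In tumours, HDM against VEH called 21 genes by edgeR, 0.0946% of those tested, with 0.00901% higher and 0.0856% lower. No member and none of the 58 other cardiac genes was among them. An unadjusted p below 0.05 was reached by 2 of the 58, and by 3698 of all 22190 genes. Ttn was the only tested member whose tumour groups did not overlap, where 11.3% of all genes had HDM above VEH. Against the floor it was at least 2.17-fold higher with HDM, or 1.3-fold without tumour HDM 1, and no tumour passed 0.492 CPM. For Myh6 the change was 2.30 ± 2.18, carried by tumour HDM 1, and with the name prefix as a block it was -2.50. For Actc1 it was -0.88 ± 1.67, with tumour HDM 2 and 3 both at 0.

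The difference between the 2 HDM effects, in tumour and in normal lung, was tested as an interaction. edgeR called no gene of the 22190. An unadjusted p below 0.05 was reached by 8 of the 58 other cardiac genes and by 2084 of all 22190 genes. All 9 members had negative fitted values, where 11475 of the 22190 genes did. The members' values included -2.28 ± 0.67 for Srl, -2.95 ± 0.78 for Myl4 and -3.27 ± 0.90 for Tnni3. DESeq2's Wald test called 222 genes, 1% of the 22190, among them Ckm and Eno3 of the 58 and the members Tnni3 and Myl4.

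The genes most like the members were sought among 17253 genes with an average log2 CPM of at least 0, by Pearson r over the 12 libraries with the mean of the members' standardised log2 CPM. The closest was Trim36, at r = 0.92, followed by Nectin1, Osmr, Gprin3, Ankrd1, Atp11a, Dennd1c, Tcap, Gm12802 and Atg14, the last at r = 0.894. All 10 also had a higher mean level in normal lung than in tumours, a difference the 12 points share. Ankrd1, a stress-responsive titin-binding protein of muscle, and Tcap are the 2 of the 10 on the cardiac lists. Of the closest 100 genes 7 were on these lists, which hold 30 of the 17253. Over the 6 normal libraries alone, r was 0.796 for Trim36, 0.714 for Ankrd1, 0.753 for Tcap and 0.926 for Gprin3.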

How the data were processed

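Raw read counts per Ensembl gene, as deposited by the authors in 1 table of 12 libraries, are whole numbers with no normalization. Per the submitters' processing notes, Trim Galore, STAR and featureCounts were used with mm39, without versions. Per the labels' protocols, libraries were stranded, and the strand setting of the counting is not given in the sources used here. Opposite-strand overlaps also touch Mybphl (Gm12522, 34080 counts against 465), Cox8b (Psmd13, 34019 against 194) and Shox2 (Rsrc1, 11100 against 1704), among other genes. Of 78298 gene rows, 78168 matched GENCODE M39 symbols, and 1 listed gene (Bves) was matched by its current name Popdc1. Counts were fitted with edgeR 4.0.16 (R 4.3.3; TMM, filterByExpr with a minimum count of 10, robust quasi-likelihood) over 4 groups, leaving 22190 genes, with Benjamini-Hochberg adjustment over all of them and calls below 0.05. DESeq2 1.42.0 was an alternative, with other scalings, filters, blocks and left-out libraries. The fit was tested on simulated data. A fold against a group at 0 used a floor of 3 counts per library, meant to cover counting error only. Many low counts were even, as with 36, 118 and 20 for Kcnj3 in normal HDM. Whether both reads of a pair were counted was not checked. If they were, 3 counts do not cover counting error, and every bound given as "at least" is too high. Small bounds, such as 2.17-fold for Ttn in tumours and 2.78-fold for Tnni1, would then not hold at that size. CPM and RPKM were computed from the counts, the latter with the table's gene lengths. The members and lists were chosen with earlier results of these data known. Of other cardiac genes, the text names up to 5 called with the largest rise and 5 with the largest fall per comparison, atrial and ventricular genes, transcription factors, and the 10 genes most like the members. Genes that DESeq2 called, sums and ratios were picked after their values were seen. Some listed genes are not reported here by name.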

Additional observations from a re-analysis of the deposited data

How the results depend on the processing

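Requiring at least 10 counts in every library, which leaves 2 of the members and 15 of the other cardiac genes, gave 0 members called for tumour against normal with VEH and 2 with HDM, and 11 and 12 of the other genes. Over all genes 6893 and 7900 were called under that filter, against 8624 and 11512 in the main fit. DESeq2's Wald test called 4 members and 4 other cardiac genes for HDM against VEH in normal lung, and 2 other genes for the interaction. With the library-name prefix as a block, 15 of the other genes were called for tumour against normal with VEH. Without the 4 libraries of the conflicting prefixes this count was 16, and members called were 0 with VEH and 3 with HDM. Over all genes the prefix block called 5783 with VEH. Leaving out those 4 libraries gave 5603 with VEH and 8505 with HDM. Leaving out 1 library in turn gave 1 to 3 members and 15 to 29 other genes with VEH, and 6 to 9 members and 46 to 52 other genes with HDM, where Nppa passed the filter in some of these fits and 9 or 10 members were tested. Over all genes these fits called 5733 to 9070 with VEH and 9822 to 10695 with HDM. The cause of these shifts was not tested. The filter and the left-out libraries also bring fewer genes or samples, which was not separated from the values removed. Replicate numbers were not shown to pair the libraries: same-numbered libraries correlated from -0.355 to 0.303 over 18 pairs, 8 of them over 0.1, and 5 of 12 libraries matched their own number best. With the replicate number as a block, 2 members and 24 other genes were called with VEH, and 9 and 49 with HDM. Over all genes that block gave 7830 and 11001. Same-prefix libraries correlated from -0.219 to 0.179 over 6 pairs. Scaling by library size alone moved the median of all genes from -0.11 to 0.03 with VEH and from -0.08 to 0.10 with HDM, and the counts for tumour against normal stayed at 3 and 9 members and 29 and 52 other genes. Of 456 alternative values for single other cardiac genes, 82 lost the call and none turned direction. Depth limits Nppa, Nkx2-5, Myl3 and the tumour levels of most members, which rest on few counts.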

Other observations

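Some other heart muscle genes, chosen after their values were seen, are given here by library. Pln, the inhibitor of the cardiac calcium pump, was at 0.985, 2.01 and 0.21 CPM in normal VEH and at 9, 13.3 and 7.32 CPM in normal HDM, and at 0.574 CPM or less in tumours. Actn2, the Z-disc actinin of striated muscle, was at 0.164, 1.51 and 0.252 CPM in normal VEH and at 8.1, 14.6 and 8.79 CPM in normal HDM. Atp2a2, the calcium pump itself, is used by most cell types, and it ran from 243 to 270 CPM in normal VEH, from 318 to 482 CPM in normal HDM and from 282 to 350 CPM in tumours. Hspb7, a small heat shock protein of heart muscle, was at 9.64, 4.15 and 0.925 CPM in normal VEH and at 11.5, 13.9 and 16.7 CPM in normal HDM, and tumours had 0.574 CPM or less.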
